A study of Homo sapiens with 40 samples.

Results

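The arrays described here came from hTERT-RPE1 cells, a line of retinal pigment epithelial cells immortalized with telomerase, collected on day 3 after transfection. HINFP siRNA (2 arrays) was set against CASP8AP2 siRNA (2 arrays) and NPAT siRNA (2 arrays), 6 of the 40 arrays of the study, over all 22069 Ensembl genes. For each gene, the mean of the HINFP arrays was compared with the mean of the 2 other group means, so that no control array enters the difference itself. Each siRNA pool aimed at a single gene and was used at 15 nM. Control siRNA of the same day and line gave 2 further arrays, which are printed beside the results as the untargeted level, and U2OS osteosarcoma cells carried the same 4 treatments in 2 arrays each. Both wells of a group were transfected at the same time, so p-values measure only the spread between simultaneous wells. That spread is pooled over the 8 day 3 groups of both lines, while the difference itself comes from a single line.

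Histone genes that are switched on in S phase share a set of regulators. CASP8AP2, also called FLASH, and NPAT are proteins of the histone locus body, a nuclear structure that forms at the clustered histone genes, and they are needed for the transcription and the 3 prime end processing of those transcripts. HINFP is a zinc finger protein that binds DNA directly, was described first at histone H4 gene promoters and recruits NPAT there. Comparing HINFP siRNA with the other siRNAs therefore asks what differs between lowering the DNA-binding factor and lowering its partners at histone genes.

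The log2 values of an array averaged between 5.85 and 5.88 on each of the 8 hTERT-RPE1 arrays, and replicate arrays of this line correlated with r between 0.995 and 0.997 across genes. The pigment epithelium markers with a symbol did not mark a differentiated epithelium: RLBP1 lay at 3.62 to 3.86 and BEST1 at 3.87 to 4.11 in the 4 group means, near the lowest values of the arrays, while EZR lay between 10.97 and 11.22. Markers of blood (CD3E and CD14 among 3 with a symbol), bone (2) and endothelium (2) gave no call in the comparison. A symbol could be attached to 1919 genes (8.7%), taken from the gene list of the siRNA screens of the same study, and the canonical histone genes had none. The histone genes regulated in S phase are therefore not described by name here.

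The siRNA targets checked the labels first. HINFP read 6.16 and 6.23 with HINFP siRNA, 7.16 and 7.23 with CASP8AP2 siRNA and 7.07 and 7.09 with NPAT siRNA. Its transcript lay below the other arrays in both HINFP wells, with a log2 difference of -0.95 (SE 0.13, limma adjusted p 0.00155) that left 51.9% of the level in the other wells. NPAT read 8.24 and 8.47 with HINFP siRNA and 8.40 and 8.39 with CASP8AP2 siRNA, against 7.06 and 7.03 with its own siRNA. HINFP and CASP8AP2 siRNA differed in NPAT by -0.04 (SE 0.11, adjusted p 0.925). CASP8AP2 was 6.67 and 6.78 with its own siRNA, 7.39 and 7.33 with NPAT siRNA and 7.13 and 7.35 with HINFP siRNA. HINFP and CASP8AP2 siRNA differed in it by 0.52 (SE 0.11, adjusted p 0.0171). The HINFP contrast for it, which averages in the NPAT wells, was 0.20 (adjusted p 0.313). Control means were 7.24 for HINFP, 8.36 for NPAT and 7.49 for CASP8AP2, against 6.19, 7.05 and 6.72 with the siRNA of each gene. The targets were thus lowered in part and to unlike depth, and an effect of depth was not tested.

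HINFP siRNA gave a transcriptome apart from that of the 2 other siRNAs for 1009 genes at an adjusted p under 0.05, which is 4.57% of all genes tested. Of these 612 were lower (2.77%) and 397 higher (1.80%), a split that became 506 lower and 481 higher when each array was centred on its median. Among differences of at least 1 on the log2 scale, 34 genes were lower and 10 higher. Among genes with a symbol 95 were lower and 42 higher, a called share of 7.14%. Both HINFP arrays lay beyond all 4 other arrays for 929 of the 1009 genes, while 25.1% of all genes did so. This count uses the same values as the calls, so it describes them and is no further test. The median difference over all genes was 0.01 on the log2 scale, and 3716 genes had an unadjusted p under 0.05.

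The count leaned on single arrays. It was 573 and 646 without CASP8AP2 array 1 or 2, 561 and 575 without NPAT array 1 or 2, and 215 and 355 without HINFP array 1 or 2, where the remaining array of that group is assumed to vary as the other groups do. Genes both called and apart from all 4 other arrays numbered 210 and 341 in those last cases and 533 to 601 in the others. A fit of the 8 hTERT-RPE1 arrays alone called 563 genes, and a fit of both lines without any control array called 978.

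Because the reference is a mean of 2 treatments, a gene can be called through either of them. HINFP siRNA differed from CASP8AP2 siRNA alone for 840 genes (3.81%), 281 higher (1.27%) and 559 lower (2.53%), and from NPAT siRNA alone for 801 (3.63%), 346 higher (1.57%) and 455 lower (2.06%). With each array centred on its median, the split against NPAT siRNA turned to 393 higher and 373 lower, while that against CASP8AP2 siRNA was 323 higher and 482 lower. A call of the same sign in both comparisons was made for 220 genes (0.997%), 73 higher and 147 lower. Those comparisons share the HINFP arrays and are not independent. CASP8AP2 and NPAT siRNA themselves differed for 525 genes (2.38%), 388 higher (1.76%) and 137 lower (0.621%) with CASP8AP2 siRNA, and this applied to 177 of the 1009 genes of the HINFP contrast. Without any 1 of the 4 arrays compared, the counts were 323 to 374 against CASP8AP2 siRNA, 117 to 505 against NPAT siRNA and 157 to 256 between those siRNAs. The 220 genes became 99 and 94 without CASP8AP2 array 1 or 2, 78 and 90 without NPAT array 1 or 2, and 58 and 100 without HINFP array 1 or 2.

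**Figure D1:**
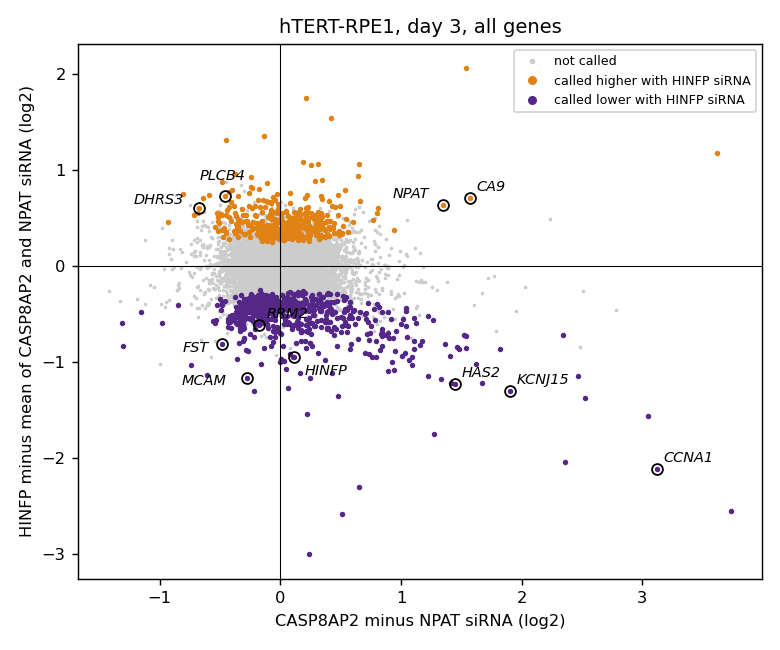
Each point is a gene in hTERT-RPE1 cells on day 3; the horizontal axis is CASP8AP2 minus NPAT siRNA and the vertical axis is HINFP siRNA minus the mean of those groups, both in log2 units, with 2 arrays per group. Called genes are coloured by direction; MCAM, at -0.28 on the horizontal axis, sits far nearer to the vertical line than CCNA1 at 3.12 or KCNJ15 at 1.90.

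The plot of the HINFP contrast against the difference between its 2 reference groups separates the falls into those that stood against both siRNAs and those that stood mainly against CASP8AP2 siRNA. MCAM, FST, HINFP itself, PGF and IGFBP2 were called lower against each siRNA separately. CCNA1, KCNJ15, HAS2, ANPEP and LIPG were called lower against CASP8AP2 siRNA and not against NPAT siRNA. All of these but FST were named under a rule that required the HINFP arrays to lie below the 4 others.

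MCAM, the adhesion molecule CD146, read 5.99 and 5.72 with HINFP siRNA, 6.85 and 6.92 with CASP8AP2 siRNA and 7.09 and 7.24 with NPAT siRNA, while the controls read 4.92 and 4.95. HINFP wells were thus intermediate, above the controls and below all wells of the other siRNAs (-1.17, SE 0.087, adjusted p 1.06e-05), at 44.4% of their level. In RNA from whole wells, fewer cells with a transcript and less of it per cell cannot be told apart. FST, the activin-binding protein follistatin, had the same order of groups: 7.94 and 8.10 in controls, 8.38 and 8.35 with HINFP siRNA, 8.94 and 8.95 with CASP8AP2 siRNA, and 9.41 and 9.43 with NPAT siRNA (-0.82, SE 0.089, adjusted p 0.000293). PGF, placental growth factor of the VEGF family, was at the control level with HINFP siRNA (4.95 and 4.83 against 4.74 and 4.90) and above it with CASP8AP2 siRNA (6.01 and 6.08) and NPAT siRNA (5.39 and 5.54). For IGFBP2, a binding protein of insulin-like growth factors, the HINFP wells read 6.40 and 6.38, the CASP8AP2 wells 7.46 and 7.26 and the NPAT wells 6.94 and 7.25, over controls of 6.21 and 6.04. The contrasts of PGF and IGFBP2 were -0.87 (adjusted p 0.000582) and -0.83 (adjusted p 0.0049). Of these genes IGFBP2 lost its call without HINFP array 1 (-0.84, adjusted p 0.0593).

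CCNA1, the cyclin A1 of the germ line, read 3.68 and 4.16 with HINFP siRNA and 4.51 and 4.45 with NPAT siRNA, close to the controls at 4.24 and 3.97, and 7.64 and 7.55 with CASP8AP2 siRNA. Its contrast of -2.12 (SE 0.16, adjusted p 1.49e-05) was made of -3.68 against CASP8AP2 siRNA and -0.56 against NPAT siRNA (adjusted p 2.54e-07 and 0.138). KCNJ15, an inward-rectifier potassium channel, had the same shape, with 3.91 and 3.84 with HINFP siRNA, 4.12 and 4.35 with NPAT siRNA and 6.16 and 6.10 with CASP8AP2 siRNA (-1.31, SE 0.086, adjusted p 4.73e-06). In both genes a single treatment stood high and the other arrays lay near the floor of the array, where folds are compressed. HAS2, which makes hyaluronan, was 5.47 and 5.54 with HINFP siRNA, 5.89 and 6.14 with NPAT siRNA and 7.40 and 7.52 with CASP8AP2 siRNA (-1.23, SE 0.14, adjusted p 0.00054). ANPEP, the surface peptidase aminopeptidase N, was 6.33 and 6.00, then 6.56 and 6.85, then 7.87 and 7.99 in the same order of siRNAs (-1.15, adjusted p 0.000503). LIPG, endothelial lipase, was 4.88 and 4.64 with HINFP siRNA, 4.94 and 5.45 with NPAT siRNA and 6.08 and 6.32 with CASP8AP2 siRNA (-0.94, adjusted p 0.00197). Against NPAT siRNA alone the differences of KCNJ15, HAS2, ANPEP and LIPG lay between -0.54 and -0.36, with adjusted p from 0.0681 to 0.153.

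**Figure D2:**
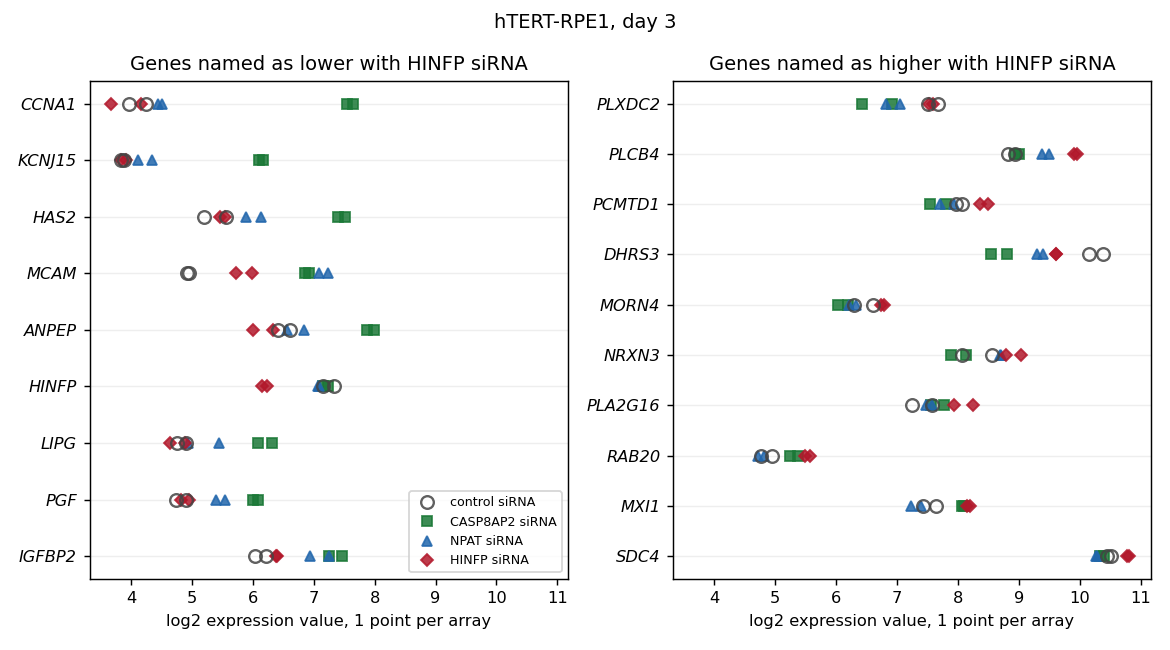
Log2 expression value of 9 of the largest falls (left) and the 10 largest rises (right) among called genes with a symbol whose HINFP arrays lay beyond the 4 other arrays, 1 point per array and 2 arrays per siRNA, hTERT-RPE1 day 3. MCAM with HINFP siRNA (5.99 and 5.72) sits between controls and the other siRNAs, and DHRS3 with HINFP siRNA (9.62 and 9.61) sits between the other siRNAs and its controls (10.16 and 10.37).

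Among the 34 genes lower by at least 1, the control mean was nearer to the HINFP mean than to the mean of the other siRNAs in 32 (94.1%). The same held for 323 of the 612 genes called lower (52.8%), for 146 of the 397 called higher (36.8%) and for 46.8% of all genes. The HINFP arrays also lay beyond both control arrays, on the same side, in 344 of the 612 lower genes and 286 of the 397 higher ones. Arrays that the contrast did not use gave a further view: on day 2 in this line, CASP8AP2 siRNA against control (3 arrays each) was called higher for 202 and lower for 30 of the 612 genes, where 4.25% and 2.16% of all genes were called higher and lower. Of the 34 genes lower by at least 1, 33 were called higher on day 2 with CASP8AP2 siRNA. CCNA1 (2.18), KCNJ15 (1.34), HAS2 (0.55), MCAM (1.56), ANPEP (0.94), LIPG (0.64), PGF (1.47) and FST (0.43) were all higher there in log2 units. IGFBP2 was not (0.32, adjusted p 0.309).

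Called rises were smaller. PLCB4, a phospholipase C that acts downstream of G protein-coupled receptors, read 9.91 and 9.96 with HINFP siRNA, 8.95 and 9.01 with CASP8AP2 siRNA, 9.50 and 9.38 with NPAT siRNA and 8.93 and 8.82 in the controls. HINFP wells stood above all others (0.73, SE 0.075, adjusted p 0.000189) and the difference was called against each siRNA, at 0.96 and 0.50 (adjusted p 3.93e-05 and 0.00802). SDC4, the heparan sulfate proteoglycan syndecan-4, read 10.82 and 10.78 with HINFP siRNA and between 10.27 and 10.52 on the 6 other arrays of the line (0.48, SE 0.074, adjusted p 0.00353). PCMTD1 read 8.50 and 8.36 with HINFP siRNA and between 7.54 and 8.07 elsewhere (0.68, SE 0.13, adjusted p 0.013). These 3 genes were higher in HINFP wells than in the controls too, and were called against both siRNAs separately.

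In DHRS3 and PLXDC2 the reference wells lay under the controls and the HINFP mean was not above the control mean. DHRS3, a retinal reductase, was 9.62 and 9.61 with HINFP siRNA, 8.54 and 8.81 with CASP8AP2 siRNA and 9.30 and 9.39 with NPAT siRNA, all under the controls at 10.16 and 10.37 (0.60, SE 0.11, adjusted p 0.00824). PLXDC2 was at the control level with HINFP siRNA (7.53 and 7.59 against 7.67 and 7.52) and lower with CASP8AP2 siRNA (6.42 and 6.92) and NPAT siRNA (6.82 and 7.05), with a contrast of 0.76 (SE 0.16, adjusted p 0.0178). MXI1, a MAX partner that opposes MYC, was 8.20 and 8.15 with HINFP siRNA and 8.06 and 8.10 with CASP8AP2 siRNA but 7.40 and 7.23 with NPAT siRNA and 7.42 and 7.63 in controls, so its contrast (0.48, adjusted p 0.00532) was called against NPAT siRNA (0.86, adjusted p 0.000351) and not against CASP8AP2 siRNA (0.10, adjusted p 0.71). MORN4 (0.57), the neurexin NRXN3 (0.55), the phospholipase PLA2G16 (0.49) and the small GTPase RAB20 (0.49) were also called, with adjusted p between 0.0169 and 0.0272. Their HINFP means lay above the control means by 0.31, 0.60, 0.68 and 0.67, and the means of the other siRNAs lay at -0.25, 0.05, 0.19 and 0.18 from the control. DHRS3, PLXDC2, MORN4 and NRXN3 were called against CASP8AP2 siRNA alone (0.94, 0.89, 0.64 and 0.89, adjusted p 0.000945 to 0.0264). Against NPAT siRNA alone these 4 genes were not called (0.27, 0.63, 0.49 and 0.21, adjusted p 0.0799 to 0.558). Among the 10 rises, 9 calls were lost without HINFP array 1 (adjusted p 0.057 to 0.337, PLCB4 being the exception) and 6 without HINFP array 2 (0.0597 to 0.228). Without CASP8AP2 array 1, NPAT array 1 or NPAT array 2 the calls lost were 4, 3 and 4, all among PLXDC2, MORN4, NRXN3, PLA2G16 and RAB20 and with differences that stayed between 0.44 and 0.71.

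The largest differences of all lay in genes with no paired symbol. ENSG00000124635 read 6.32 and 6.55 with HINFP siRNA, 9.52 and 9.62 with CASP8AP2 siRNA and 9.36 and 9.30 with NPAT siRNA, against 6.46 and 6.45 in controls (-3.01, SE 0.094, adjusted p 2.30e-09). ENSG00000130513 read 8.53 and 7.69 with HINFP siRNA, 10.96 and 10.95 with CASP8AP2 siRNA, 10.26 and 10.64 with NPAT siRNA and 4.39 and 4.56 in controls (-2.59, SE 0.17, adjusted p 4.73e-06). In the first the HINFP wells were at the control level, and in the second they lay between the controls and the other siRNAs. Higher with HINFP siRNA were ENSG00000236882, at 8.17 and 7.43 against 6.47 and 6.55 with CASP8AP2 siRNA and 4.96 and 4.98 with NPAT siRNA (2.06, SE 0.15, adjusted p 1.06e-05), and ENSG00000136275, at 5.99 and 6.14 against 4.04 to 4.50 on the 4 other arrays (1.75, SE 0.12, adjusted p 4.73e-06).

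The DNA replication list held 21 members with a symbol among its 52 genes, and all 21 were below 0 in the HINFP contrast, where 10373 of all 22069 genes were. Their median difference was -0.31, against 0.01 over all genes. A fall was called for 7 (RRM2, CLSPN, ORC1L, RRM1, CDC6, RPA2 and LIG1), a rise for none, and 14 did not pass. Beside this, 2.77% of all genes and 95 of the 1919 genes with a symbol were called lower. The list covers licensing of origins, synthesis of DNA and supply of nucleotides.

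RRM2 and RRM1 are the subunits of ribonucleotide reductase, which makes deoxyribonucleotides. RRM2 read 9.43 and 9.75 with HINFP siRNA, 10.19 and 10.04 with CASP8AP2 siRNA, 10.33 and 10.25 with NPAT siRNA and 9.79 and 9.80 in controls. The HINFP wells were the lowest of the 8 and the wells of the other siRNAs stood above the controls (-0.62, SE 0.092, adjusted p 0.00284). RRM1 read 9.96 and 10.18 with HINFP siRNA, 10.43 and 10.35 with CASP8AP2 siRNA and 10.75 and 10.63 with NPAT siRNA (-0.47, SE 0.077, adjusted p 0.00494). CLSPN, the claspin of the replication checkpoint, read 6.95 and 7.23, then 7.53 and 7.54, then 7.91 and 7.76 in the same order (-0.60, SE 0.10, adjusted p 0.00615). ORC1L, the largest subunit of the origin recognition complex, read 6.90 and 6.98, then 7.32 and 7.58, then 7.60 and 7.49 (-0.56, SE 0.095, adjusted p 0.00594). For CDC6, which loads the replicative helicase, the group means were 8.90, 9.23 and 9.51 over a control mean of 9.14 (-0.47, adjusted p 0.00448). RPA2 and LIG1 gave -0.38 and -0.36 (adjusted p 0.0241 and 0.0395). CCNE2 (-0.51, adjusted p 0.052), DTL (-0.34, adjusted p 0.0509) and POLA1 (-0.41, adjusted p 0.061) lay just outside the threshold, and RPA3 (-0.06) and RPA1 (-0.10) were smallest.

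Against NPAT siRNA alone 10 of the 21 were called lower (2.06% of all genes) and the median was -0.38, and against CASP8AP2 siRNA alone 2 were called lower (2.53% of all genes) and the median was -0.23. Relative to the control mean, the median member stood at 0.11 with NPAT siRNA, at -0.08 with CASP8AP2 siRNA and at -0.31 with HINFP siRNA, with 5, 13 and 20 of the 21 below the control mean. These control values are shared by all 3 figures. Without HINFP array 1 none of the 21 was called (median -0.24, 20 below 0), and without any 1 of the 5 other arrays 5 or 6 were. Under cyclic loess, quantile normalization, a filter on low values or an intensity trend the count was 11.

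**Figure D3:**
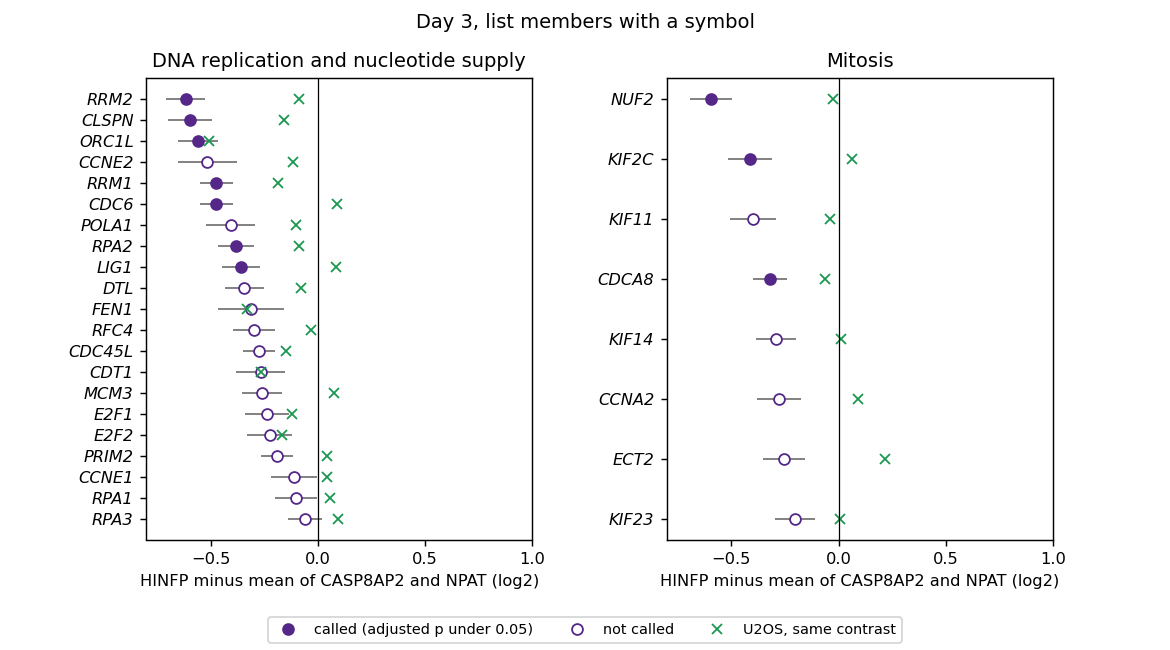
HINFP siRNA minus the mean of CASP8AP2 and NPAT siRNA in log2 units for the members with a symbol of the DNA replication list (left, 21 genes) and the mitosis list (right, 8 genes), day 3; circles are hTERT-RPE1 with their standard error (bars, 2 HINFP arrays against 4), crosses the same contrast in U2OS. Every circle lies below 0, from -0.62 for RRM2 to -0.06 for RPA3, while the crosses lie on both sides of 0.

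The mitosis list had 8 members with a symbol among 45 genes, all below 0 beside 10373 of all 22069 genes, with a median of -0.31. Of these 8, 3 were called lower, beside 2.77% of all genes and 95 of the 1919 genes with a symbol. NUF2, of the outer kinetochore, read 8.27 and 8.57 with HINFP siRNA, 9.02 and 8.86 with CASP8AP2 siRNA, 9.12 and 9.07 with NPAT siRNA and 8.94 and 8.93 in controls (-0.59, SE 0.098, adjusted p 0.00504). KIF2C, a kinesin that shortens microtubules, and CDCA8, of the chromosomal passenger complex, gave -0.42 and -0.32 (adjusted p 0.0379 and 0.0353). KIF11 (-0.40), KIF14 (-0.29), CCNA2 (-0.28), ECT2 (-0.26) and KIF23 (-0.20) had adjusted p between 0.0568 and 0.281. All 8 means with HINFP siRNA were under the control mean, against 1 of 8 with NPAT siRNA and 3 of 8 with CASP8AP2 siRNA. No member was called without HINFP array 1. The count was 1 without CASP8AP2 array 1, without NPAT array 1 and in the fits of 6 or 8 arrays, and 2 without CASP8AP2 array 2 or NPAT array 2.

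The other lists are described through their members with a symbol, which are a part of each list. Of 10 p53 target genes with a symbol among 51, PMAIP1 and POLH were lower and none was higher, with a list median of -0.09. PMAIP1, which encodes the BH3-only protein NOXA, read 8.81 and 8.40 with HINFP siRNA, 9.27 and 9.18 with CASP8AP2 siRNA, 9.17 and 9.15 with NPAT siRNA and 8.09 and 8.20 in controls (-0.58, SE 0.10, adjusted p 0.00643). HINFP wells again fell between the controls and the other siRNAs. POLH, the translesion DNA polymerase eta, gave -0.31 (adjusted p 0.0197), and BAX, BBC3 and XPC lay between 0.00 and 0.16 with no call. The p53 list therefore shows 2 of 10 called, beside 7.14% of genes with a symbol.

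Signalling and stress lists each held at most 2 calls, where 7.14% of all genes with a symbol were called. In the NF-kB list (7 with a symbol) IL1A, the cytokine interleukin-1 alpha, was lower (-0.69, adjusted p 0.032), and its HINFP wells at 4.72 and 4.91 overlapped the NPAT wells at 5.34 and 4.84. In the ATF4 and unfolded protein list (12) DNAJB9, a chaperone of the endoplasmic reticulum, was higher (0.40, adjusted p 0.0404) and the transcription factor CEBPB lower (-0.38, adjusted p 0.026). DNAJB9 was 0.18 against CASP8AP2 siRNA and 0.62 against NPAT siRNA, and CEBPB was -0.67 and -0.09 in that order. CA9, carbonic anhydrase of the hypoxia list (5), was 9.72 and 9.89 with HINFP siRNA, 9.84 and 9.93 with CASP8AP2 siRNA and 9.88 and 9.35 in controls, but 8.18 and 8.45 with NPAT siRNA. Its called rise (0.71, adjusted p 0.0239) was -0.08 against CASP8AP2 siRNA and 1.49 against NPAT siRNA (adjusted p 0.918 and 0.00103). In the matrix and TGF-beta list (15) HAS2 was the only call. STAT2, the sole member of the interferon list with a symbol, gave 0.10 (adjusted p 0.626). Without HINFP array 2 the calls of PMAIP1, POLH, IL1A, DNAJB9, CEBPB and CA9 were all lost (adjusted p 0.075 to 0.228), and without HINFP array 1 all but PMAIP1 were (0.0891 to 0.37). The calls lost without CASP8AP2 array 1 or 2 and NPAT array 1 or 2 were 5, 2, 4 and 3 of these 6.

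Of 8 retinoid genes with a symbol, 3 enzymes were called, in both directions, beside 7.14% of all genes with a symbol. DHRS3 was higher, while DHRS9 and RDH11, which interconvert retinol and retinal, were lower. DHRS9 read 3.95 and 3.72 with HINFP siRNA, 4.03 and 4.21 with NPAT siRNA and 4.93 and 5.18 with CASP8AP2 siRNA (-0.75, SE 0.11, adjusted p 0.00264), so that only the CASP8AP2 wells stood above the floor. RDH11 gave -0.34 (adjusted p 0.0268), a call lost in the fit of the 8 arrays and without any 1 of the 6 arrays. In the cholesterol list (10), EBP, a sterol isomerase, read 8.15 and 8.18 with HINFP siRNA and between 8.52 and 8.66 on the 4 other arrays (-0.43, SE 0.075, adjusted p 0.00742). Among 4 histone chaperones with a symbol ANP32E, which removes the variant H2A.Z, was lower (-0.42, adjusted p 0.0279), and CHAF1B, a subunit of the chromatin assembly factor CAF-1, gave -0.32 (adjusted p 0.0562). All 4 chaperones lay below 0 (list median -0.27), beside 10373 of all 22069 genes. H2AFX, a variant histone, gave -0.23 (adjusted p 0.161). Without HINFP array 1 the calls of EBP, ANP32E and RDH11 were lost (differences -0.41 to -0.30, adjusted p 0.0978 to 0.332). EBP lost it without HINFP array 2 as well, and ANP32E without either CASP8AP2 array or NPAT array 1.

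U2OS cells under the same contrast had 1108 called genes (5.02%), 611 higher (2.77%) and 497 lower (2.25%), a split that became 751 higher and 380 lower when each array was centred on its median. The count was 516 and 297 without HINFP array 1 or 2 of that line and 738 to 1323 without any 1 of its 4 other arrays. Of the genes called in each line 229 were shared, 207 with the same sign (99 higher and 108 lower), which is 20.5% of the hTERT-RPE1 calls and 18.7% of the U2OS calls. CCNA1 was lower in U2OS as well (-1.09, adjusted p 0.00235), as were ORC1L (-0.51, adjusted p 0.00864), IL1A (-0.83, adjusted p 0.0127) and RDH11 (-0.31, adjusted p 0.0399). In U2OS CCNA1 read 4.96 and 5.16 with HINFP siRNA, 5.33 and 4.95 with NPAT siRNA and 6.94 and 7.39 with CASP8AP2 siRNA. Its U2OS controls read 4.28 and 4.00. The HINFP wells thus overlapped the NPAT wells, stood above the controls and lay apart below only the CASP8AP2 wells in U2OS. PCMTD1 was higher there by 0.68 (adjusted p 0.0114) and SDC4 by 0.30 (adjusted p 0.0374). Of 15 alternatives the U2OS call was lost in 11 for SDC4 (highest adjusted p 0.346), in 8 for RDH11 (0.223) and in 2 for PCMTD1 (0.144), each time including the fit of 6 arrays and U2OS HINFP array 2 left out. ORC1L lost it without U2OS HINFP array 2 (0.12) and IL1A without U2OS HINFP array 1 (0.152). The replication list had a median of -0.09 in U2OS with 14 of 21 below 0 and ORC1L as its one call, and the mitosis list had a median of 0.01 with 3 of 8 below 0 and no call.

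**Figure D4:**
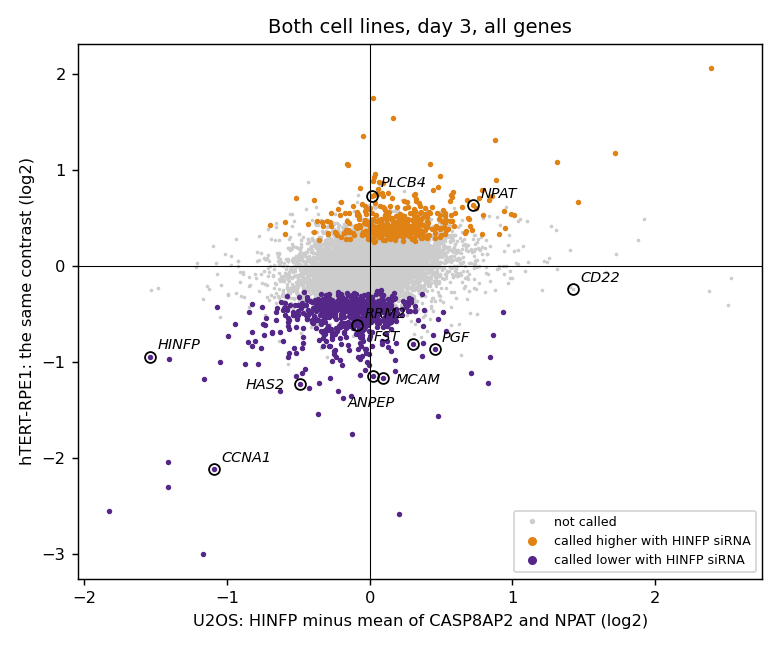
The HINFP contrast of each gene in hTERT-RPE1 (vertical) against the same contrast in U2OS (horizontal), log2 units, day 3, 2 HINFP arrays against 4 others in each line; colours mark the hTERT-RPE1 calls. CCNA1 (-2.12 and -1.09) and HINFP (-0.95 and -1.54) lie below 0 in both lines, CCNA1 mainly through high CASP8AP2 wells. MCAM (-1.17 and 0.09) and ANPEP (-1.15 and 0.03) lie low only on the hTERT-RPE1 axis, and ANPEP was near the floor on all U2OS arrays (3.89 to 4.53). CD22 (-0.24 and 1.43) stands out only on the U2OS axis.

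The difference between the lines was tested directly and called for 248 genes (1.12%), 102 above 0 (0.462%) and 146 below 0 (0.662%), of which 127 were among the 1009. MCAM was -1.17 in hTERT-RPE1 and 0.09 in U2OS (difference -1.27, SE 0.12, adjusted p 0.000292). PGF was lower in hTERT-RPE1 and higher in U2OS, where HINFP siRNA gave 6.97 and 7.21, CASP8AP2 siRNA 6.62 and 6.83 and NPAT siRNA 6.44 and 6.65 (0.46, adjusted p 0.0228, difference -1.33, adjusted p 0.000744). The U2OS call of PGF was lost in 5 of 15 alternatives (highest adjusted p 0.274): the fits of 6 and 8 arrays and without CASP8AP2 array 1, NPAT array 1 or HINFP array 2 of that line. FST differed by -1.12 (adjusted p 0.000744), KCNJ15 by -1.09 (adjusted p 0.000744), ANPEP by -1.18 (adjusted p 0.0095) and PLCB4 by 0.72 (adjusted p 0.00534). On all U2OS arrays of day 3, KCNJ15 (3.52 to 4.21) and ANPEP (3.89 to 4.53) lay near the floor, where a fall could hardly show. PLCB4 lay at 4.91 to 5.45 on those arrays. CD22, a B cell lectin, was not called in hTERT-RPE1 (-0.24, adjusted p 0.477) and was higher in U2OS, at 9.35 and 9.70 with HINFP siRNA against 8.02 to 8.28 with the other siRNAs (1.43, difference -1.67, adjusted p 0.00194). Of the replication list CDC6 alone was called for the difference between the lines (-0.56, adjusted p 0.0277), and of the mitosis list no gene was. The 248 genes became 134 and 83 without hTERT-RPE1 HINFP array 1 or 2 and 142 to 146 without 1 of the 4 other arrays of that line. They became 158 and 102 without U2OS HINFP array 1 or 2, 136 and 142 without U2OS NPAT array 1 or 2, and 169 and 302 without U2OS CASP8AP2 array 1 or 2. ANPEP lost its call without HINFP array 2 of either line (highest adjusted p 0.0737), and CDC6 in 12 of 20 alternatives, 10 of them with an array left out (0.129).

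HINFP binds a short motif whose core reads CGTCCG. RefSeq promoters (GRCh38.p14, 250 bases before to 50 after each start) were searched for this core on both strands, as CGTCCG or CGGACG. A match was found for 9.4% of all 35116 promoters and for 11.2% of 27305 gene symbols with a promoter. Among genes of the arrays with a symbol it was found for 249 of 1492 (16.7%), for 14 of 79 called lower (17.7%) and for 9 of 35 called higher (25.7%), and these shares were not tested. A gene with several promoters counted once if any of them matched, and a match is a run of letters, not a shown binding site. Of 40 named genes with a promoter 6 had a match: RRM2, ANPEP, PGF and PMAIP1 among the falls and DHRS3 and MXI1 among the rises. A promoter of RRM2 and of ANPEP is shown for the falls and of DHRS3 and MXI1 for the rises, each with a single match, in capitals, and other RefSeq promoters of these 4 genes had none.
RRM2 (chr2:10122318-10122617, plus strand): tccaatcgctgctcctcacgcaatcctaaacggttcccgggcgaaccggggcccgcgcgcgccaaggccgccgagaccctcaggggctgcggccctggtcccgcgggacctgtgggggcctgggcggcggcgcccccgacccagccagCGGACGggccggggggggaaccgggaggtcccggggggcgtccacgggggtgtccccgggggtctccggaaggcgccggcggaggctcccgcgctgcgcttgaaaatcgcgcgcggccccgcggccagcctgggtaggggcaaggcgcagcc
ANPEP (chr15:89814803-89815102, minus strand): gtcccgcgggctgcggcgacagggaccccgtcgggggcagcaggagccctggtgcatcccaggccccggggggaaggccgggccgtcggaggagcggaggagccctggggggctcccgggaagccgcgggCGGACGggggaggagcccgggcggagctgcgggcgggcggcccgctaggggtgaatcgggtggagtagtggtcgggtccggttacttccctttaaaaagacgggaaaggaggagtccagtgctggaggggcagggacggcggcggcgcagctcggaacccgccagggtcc
DHRS3 (chr1:12618161-12618460, minus strand): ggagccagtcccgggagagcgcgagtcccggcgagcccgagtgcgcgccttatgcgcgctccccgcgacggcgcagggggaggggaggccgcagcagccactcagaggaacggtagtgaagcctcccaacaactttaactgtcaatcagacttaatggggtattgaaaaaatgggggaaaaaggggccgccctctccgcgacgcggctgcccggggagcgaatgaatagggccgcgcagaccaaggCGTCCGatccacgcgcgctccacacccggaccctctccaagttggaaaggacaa
MXI1 (chr10:110209981-110210280, plus strand): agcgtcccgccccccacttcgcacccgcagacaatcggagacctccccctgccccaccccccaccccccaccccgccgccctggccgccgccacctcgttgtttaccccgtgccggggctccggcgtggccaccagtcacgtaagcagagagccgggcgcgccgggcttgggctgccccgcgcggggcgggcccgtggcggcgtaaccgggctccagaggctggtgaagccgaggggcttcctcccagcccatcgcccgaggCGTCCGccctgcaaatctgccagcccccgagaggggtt
The core lay 102 bases before the start in RRM2, 120 before it in ANPEP and 4 before it in DHRS3, and 12 bases after it in MXI1. HINFP, NPAT, CASP8AP2, CCNA1 and MCAM had no match in this window.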

How the data were processed

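Total RNA from transfected hTERT-RPE1 and U2OS cells was hybridised to Affymetrix Human WT 1.1 arrays. The authors deposited log2 expression values, 1 per Ensembl gene and array, made with the affy package and a custom probe grouping. RMA is named in the submitters' processing notes, and the version of the grouping and the genome build are not given in the sources used here. RMA fits all arrays to a common distribution, so a shift of the whole transcriptome would not show, and values near 4 are compressed. The number of arrays, not a read depth, limits the precision.

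The 16 day 3 arrays (8 groups of 2) were fitted without filter by limma 3.58.1 in R 4.3.3 with 1 mean per group, Benjamini-Hochberg adjustment over 22069 genes and a threshold of 0.05. Control and U2OS arrays entered the HINFP contrast only through the shared spread (8 residual degrees of freedom). Days 1 and 2 were normalized separately and fitted on their own. Called means an adjusted p under 0.05, and a difference is in log2 units. Data were also simulated from the fitted group means, with those of the hTERT-RPE1 siRNAs compared set equal, plus independent normal noise of the fitted spread. In them 61 of 100 genes changed by 0.5 and 99 of 100 changed by 1 were recovered in the hTERT-RPE1 contrast, with 9 false calls over 22069 genes. Such noise meets the assumptions of the fit by construction, so these figures do not measure the error on the real arrays.

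Genes were named by this rule: the targeted genes, the 10 largest called falls and 10 largest rises whose HINFP arrays lay beyond the 4 others, up to 4 called members of each gene list or else the 2 largest, and the 5 largest called differences between lines. Other list members, DNA repair genes and genes shared between the lines were chosen after their values were seen. A symbol was paired for 1919 genes from the screen lists of the study, of which 1904 matched RefSeq. The comparison, the members and the gene lists were chosen with earlier results of these data known. A gene that the rule names is not reported here. The lists for histones H1, H2A, H2B, H3 and H4, for histone mRNA processing and for neurons had no gene with a symbol. Other fits, normalizations, filters, thresholds and left-out arrays were run as alternatives.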

Additional observations from a re-analysis of the deposited data

Results flagged for a closer look

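The HINFP contrast differed between hTERT-RPE1 and U2OS, by limma's test of the difference itself, for 11 of the genes named in the text. Over all genes 1.12% were called in this test. The naming rule took in the 5 largest called differences between lines, MCAM, ANPEP and PGF among them. The count of 11 therefore follows in part from this same test. Values are hTERT-RPE1 minus U2OS in log2 units. Genes lower in hTERT-RPE1 with little change in U2OS were MCAM (-1.27, adjusted p 0.000292), ANPEP (-1.18, adjusted p 0.0095), KCNJ15 (-1.09, adjusted p 0.000744), LIPG (-0.89, adjusted p 0.0436), the protease inhibitor SERPINA1 (-0.91, adjusted p 0.016), the exonuclease EXO1 (-0.62, adjusted p 0.0445) and the replication factor CDC6 (-0.56, adjusted p 0.0277). PGF was lower in hTERT-RPE1 and higher in U2OS (-1.33, adjusted p 0.000744), where its call was lost in 5 of 15 alternatives, and FST was lower in hTERT-RPE1 beside a U2OS value of 0.31 (-1.12, adjusted p 0.000744). PLCB4 was higher in hTERT-RPE1 beside 0.02 in U2OS (0.72, adjusted p 0.00534), and CD22 was higher in U2OS only (-1.67, adjusted p 0.00194). On all U2OS arrays of day 3, KCNJ15 (3.52 to 4.21), ANPEP (3.89 to 4.53) and LIPG (3.89 to 4.18) lay near the floor, where a fall could hardly show. PLCB4 was low on those arrays too (4.91 to 5.45). SERPINA1, EXO1 and CDC6 were chosen after their values were seen. The calls of KCNJ15, MCAM, PGF, PLCB4, CD22 and FST held in every alternative run other than the rule of an absolute difference of at least 1. LIPG lost its call in 12 of the alternatives (highest adjusted p 0.185), EXO1 in 13, among them each left-out array (0.187), CDC6 in 12 (0.129), SERPINA1 in 3 that left out a HINFP array (0.082) and ANPEP in 2 (0.0737).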

How the results depend on the processing

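Of 39 named genes called in the hTERT-RPE1 contrast 13 kept their call in every alternative run, other than the rule of an absolute difference of at least 1, and none reversed. Without HINFP array 1 the call was lost for 25 and without HINFP array 2 for 15, which leaves 1 array in that group, assumed to vary like the others. Fitting nothing but the 6 arrays compared, the HINFP contrast gave 703 genes, HINFP against NPAT 476, CASP8AP2 against NPAT 317 and the mitosis list 1, and the U2OS contrast fitted in this way 323. In the fit of the 8 arrays of a line the contrast gave 563, HINFP against CASP8AP2 559, HINFP against NPAT 413, CASP8AP2 against NPAT 293, U2OS 578, called genes apart 524, the mitosis list 1 and genes called against each siRNA separately 114. The DNA replication list held 11 lower genes under cyclic loess, quantile normalization, a mean of at least 5 and an intensity trend alike, and the mean filter called 336 genes against each siRNA separately. With an absolute difference of at least 1 the counts were 44 for the contrast, 117 and 45 against CASP8AP2 and NPAT siRNA, 83 between these, 53 in U2OS, 67 between lines, 2 over the gene lists, 38 apart, 18 against each siRNA separately and 0 for the replication and mitosis lists. Requiring a call against each siRNA gave 220. Leaving out 1 array at a time gave 215 to 646 for the contrast, 323 to 374 against CASP8AP2 siRNA, 117 to 505 against NPAT siRNA, 157 to 256 between these, 297 to 1323 in U2OS, 83 to 302 between lines, 6 to 19 over the gene lists, 210 to 601 apart, 58 to 100 separately, 0 to 6 for the replication list and 0 to 3 for the mitosis list. The cause of these shifts was not tested, beyond the fewer arrays and genes that a setting holds by construction. The median of all genes stayed between 0.00 and 0.03.

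Replicate numbers do not pair the samples (correlations of deviations -0.02, -0.13 and 0.00), and with the replicate block the contrast called 956 genes, U2OS 1085 and the difference between lines 214, while CDCA8, IL1A and DNAJB9 lost their calls.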

Other observations

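Values are given for 8 genes with known roles in DNA repair that were called lower with HINFP siRNA in hTERT-RPE1. They were picked because they were called, repair genes that were not called were not counted, and nothing follows from them about repair genes as a group. BLM, the Bloom syndrome helicase, read 7.62 and 7.86 with HINFP siRNA, 8.30 and 8.45 with CASP8AP2 siRNA, 8.72 and 8.46 with NPAT siRNA and 8.12 and 8.32 in controls, so that the HINFP wells were the lowest of the 8 (-0.74, SE 0.10, limma adjusted p 0.00179). EXO1, a nuclease of DNA end resection, gave -0.68 (adjusted p 0.00179), DNA2 -0.55 (adjusted p 0.0103), BRCA2 -0.51 (adjusted p 0.00796), RAD54L -0.53 (adjusted p 0.0306), NEIL3 -0.40 (adjusted p 0.0145), FANCG -0.37 (adjusted p 0.00783) and FANCE -0.39 (adjusted p 0.0467). Without HINFP array 1 BLM and EXO1 kept their calls and the other 6 did not. Without HINFP array 2 the calls of DNA2, RAD54L, NEIL3 and FANCE were lost, RAD54L lost its call without CASP8AP2 array 2 or NPAT array 2, and FANCE lost its call without either CASP8AP2 array or NPAT array 2. FANCE lost it in 10 of 15 alternatives in all (highest adjusted p 0.332), with the fits of 6, 8 and 12 arrays, median centring and quantile normalization among them, and RAD54L also in the fit of 8 arrays (0.26). In U2OS the same contrast was -0.16 for BLM and -0.05 for EXO1, with no call.

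Of the 137 genes with a symbol called in hTERT-RPE1, 34 were called in U2OS too, 32 with the same sign (22 lower and 10 higher). Beside this, 130 of all 1919 genes with a symbol were called in U2OS. The genes that follow were picked because they were called in both lines. TXLNA, a syntaxin-binding protein, read 8.15 and 8.23 with HINFP siRNA and between 8.69 and 9.06 on the 6 other hTERT-RPE1 arrays (-0.80, adjusted p 0.000216), and gave -0.85 in U2OS (adjusted p 0.000121). The deubiquitinase USP11 gave -0.62 and -0.57, the glutamine transporter SLC1A5 -0.44 and -0.65, and CYP11A1, which starts steroid hormone synthesis, -0.69 and -0.69 in hTERT-RPE1 and U2OS. The mean of CYP11A1 over the day 3 arrays was under 5, so the filter on low values left it out. Higher in both lines were EZH1, a histone H3 methyltransferase (0.44 and 0.35), the nuclear receptor PPARA (0.41 and 0.48), the ubiquitin ligase NEDD4 (0.38 and 0.36) and the zinc transporter SLC39A6 (0.45 and 0.41). Without HINFP array 1 the hTERT-RPE1 calls of USP11, SLC1A5, PPARA, NEDD4 and SLC39A6 were lost, and without HINFP array 2 those of PPARA, NEDD4 and SLC39A6. The U2OS calls were lost in 4 of 15 alternatives for EZH1 (highest adjusted p 0.0946) and for SLC39A6 (0.254), in 3 for NEDD4 (0.141), in 2 for PPARA (0.122) and in 1 for USP11 (0.0505), in each case with a U2OS HINFP array left out among them.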
